A study of Mus musculus with 12 samples.

Results

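The genes described here are versican (*Vcan*), the 4 syndecans (*Sdc1*, *Sdc2*, *Sdc3*, *Sdc4*), the small leucine-rich proteoglycans biglycan (*Bgn*), decorin (*Dcn*) and lumican (*Lum*), and the hyaluronan receptor *Cd44*. They were taken by name, as core proteins of proteoglycans or binders of hyaluronan, and matched from symbol to Ensembl identifier, which gave 9 of the 55421 genes in the table. The set was chosen by their roles and selected on earlier results, the gene-wise differences in counts between these groups, *Vcan* after MI first among them, so the differences between groups are given as descriptions with their errors and without a p value for any of the 9 genes.

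RNA was sequenced from sorted bone marrow endothelial cells of 12 mice aged 20 weeks, with 3 libraries in each of 4 groups that carry the replicate numbers 2, 3 and 4. The control group was naive C57BL/6J mice. The hypertension group was C57BL/6J mice infused for 8 weeks with angiotensin II, which raises blood pressure, and the MI group was C57BL/6J mice after acute myocardial infarction, at day 2 in the labels and day 4 in the study's text. The atherosclerosis group was mice with the Apoe(tm1Unc) knockout allele, fed a western diet for 10 weeks, so that genotype and diet both separate it from the controls. The study compared these conditions to ask how cardiovascular disease alters the vessels of the marrow. The same 3 control libraries served in every comparison.

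Total counts per library were between 17007088 and 25136936, and 3 counts, the floor used here, amounted to 0.116 to 0.176 CPM (counts scaled to a common library size with edgeR's TMM factors), which covers counting error only. *Apoe* lay between 7.28 and 14.8 CPM in the knockout libraries and between 450.5 and 1503 CPM in the other libraries. The sort took cells without the blood markers TER-119, CD41 and CD45 and with high CD31 and SCA-1. All 22 endothelial markers, *Cdh5* (2.00 to 4.19 CPM), *Pecam1* and *Kdr* among them, had counts in every library, with a sum between 180.3 and 324 CPM. So did all markers of the granulocyte, erythroid, macrophage and monocyte lists, so detection does not set endothelium apart. The 13 granulocyte markers summed to between 34194 and 99407 CPM and the 11 erythroid markers to between 8756 and 26249. The 15 macrophage markers summed to between 1284 and 2247, the 9 monocyte markers to between 1129 and 2022, and the 16 stromal markers to between 224 and 509 CPM. The sums of all these lists exceeded the endothelial sum in every library. The stromal sum did so narrowly in some, with 238 against 234 CPM in atherosclerosis replicate 2. The libraries thus held RNA of other marrow cells beside that of endothelium. The part of these cells in the results was not tested, except where a value is given beside a gene.

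Proteoglycans are proteins that carry long sulfated sugar chains, the glycosaminoglycans. Versican is a large secreted chondroitin sulfate proteoglycan that binds the matrix sugar hyaluronan and is made by stromal cells and by myeloid cells, whereas biglycan, decorin and lumican are small secreted proteoglycans that bind collagen. Syndecans span the membrane, carry heparan sulfate and present growth factors to their receptors, and CD44 is a membrane receptor through which blood and stromal cells of the marrow bind hyaluronan.

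RefSeq promoters on build GRCm38.p6 were found for 6 of the 9 genes (*Vcan*, *Sdc1*, *Sdc3*, *Sdc4*, *Bgn* and *Cd44*). The 250 bases before the transcription start are printed for the genes of which the values below say most, *Vcan* and *Sdc3* for their differences between groups and *Bgn* for its relation to stromal markers, each on the strand of its gene. Capitals mark matches to the GC box (GGGCGG) and the CCAAT box (CCAAT) on either strand.
Vcan, chr13:89742513-89742762, minus strand: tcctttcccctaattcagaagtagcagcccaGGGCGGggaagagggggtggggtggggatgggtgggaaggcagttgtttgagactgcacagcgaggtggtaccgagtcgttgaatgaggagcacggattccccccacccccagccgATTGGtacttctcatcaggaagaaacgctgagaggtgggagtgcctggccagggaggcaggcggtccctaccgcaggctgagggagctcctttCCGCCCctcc
Sdc3, chr4:130792287-130792536, plus strand: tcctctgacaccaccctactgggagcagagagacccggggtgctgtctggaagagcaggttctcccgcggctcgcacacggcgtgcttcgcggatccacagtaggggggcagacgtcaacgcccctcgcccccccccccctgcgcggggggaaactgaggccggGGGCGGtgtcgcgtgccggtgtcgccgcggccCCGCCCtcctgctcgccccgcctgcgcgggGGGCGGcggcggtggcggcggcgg
Bgn, chrX:73483351-73483600, plus strand: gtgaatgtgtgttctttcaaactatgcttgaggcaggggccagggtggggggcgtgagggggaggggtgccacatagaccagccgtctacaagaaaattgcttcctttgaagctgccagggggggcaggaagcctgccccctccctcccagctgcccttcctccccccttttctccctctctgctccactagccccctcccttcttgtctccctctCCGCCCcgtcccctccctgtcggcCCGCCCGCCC
The *Vcan* promoter held 2 GC boxes, beginning at bases -219 and -10 from the start, and 1 CCAAT box at -103. *Sdc3* held 3 GC boxes, at -86, -54 and -24, and its 250 bases were 76.4% G or C against 62.4% in *Vcan* and 64.4% in *Bgn*. *Bgn* held 3 GC boxes, at -34, -10 and -6, of which the last pair share bases. Of 32851 promoters of this length, 32.7% held a GC box and 33.8% a CCAAT box. A TATA box (TATAAA), E-box (CACGTG), AP-1 site (TGANTCA), STAT site (TTCNNNGAA), interferon-stimulated response element and PU.1 site (GAGGAAGT) were also searched on both strands. These letters were not in the windows of the 6 genes, and they were found in 12.4%, 6.02%, 6.75%, 7.02%, 2.98% and 2.44% of all promoters. The window of *Cd44* held none of the 8 motifs.

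Levels were compared between genes as CPM per kilobase of exon (the union of annotated exons). In order of the mean over 12 libraries, *Cd44* stood at 28.6 ± 3.34 (SD, n = 12), *Sdc3* at 5.25 ± 2.25, *Sdc1* at 5.17 ± 2.06, *Sdc4* at 4.05 ± 1.40 and *Sdc2* at 1.63 ± 0.409. *Bgn* followed at 1.51 ± 0.502, *Vcan* at 1.1 ± 1.5, *Dcn* at 0.521 ± 0.181 and *Lum* at 0.318 ± 0.242. *Cd44* exceeded *Sdc3* in 12 of 12 libraries and *Sdc4* exceeded *Sdc2* in 12 of 12, so that these pairs kept their order in every library. *Sdc3* exceeded *Sdc1* in 6 of 12, *Sdc1* exceeded *Sdc4* in 8, *Sdc2* exceeded *Bgn* in 8, *Bgn* exceeded *Vcan* in 9, *Vcan* exceeded *Dcn* in 7 and *Dcn* exceeded *Lum* in 10, and these neighbours were not separated. With the length of the longest transcript in place of all exons, *Bgn* rose to 3.46, above *Sdc2*, whose length and level of 1.63 stayed the same. *Cd44* had a higher level per length than 87.1% of the 15999 genes tested, the syndecans than 37.0% to 58.7%, *Vcan* than 30.0% and *Lum* than 12%.

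**Figure D1:**
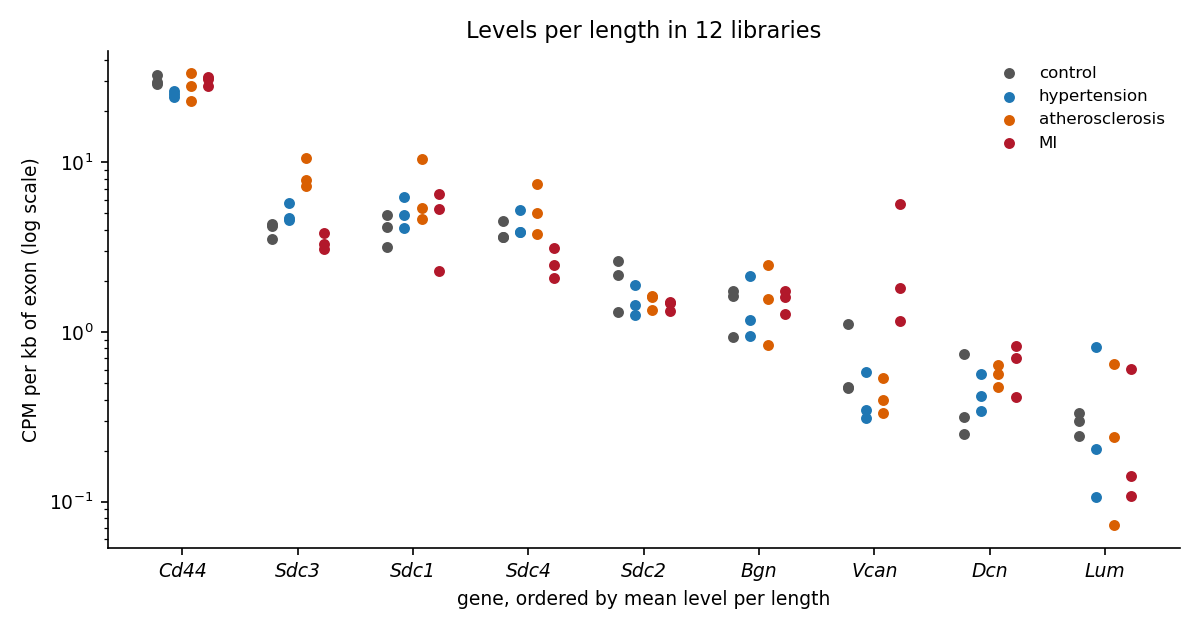
Level per length of the 9 genes in the 12 libraries, on a log axis of CPM per kilobase of exon, with genes in order of their mean and a point for each library coloured by group. The *Cd44* points lie between 23.0 and 33.5 and those of the other 8 genes lie below 11, and the *Vcan* points spread from 0.312 to 5.65.

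The genes also differed in how much they varied between mice. The SD of log2 CPM within groups was 0.74 for *Vcan*, 1.09 for *Lum*, 0.56 for *Bgn*, 0.55 for *Sdc1* and 0.51 for *Dcn*, against a median of 0.31 over the genes tested. *Sdc4* at 0.32 and *Sdc2* at 0.31 lay at that median, and *Sdc3* at 0.20 and *Cd44* at 0.15 lay below it. The *Vcan* value rose 18.1-fold from its lowest library to its highest and the *Cd44* value 1.45-fold.

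*Vcan* (ENSMUSG00000021614, chromosome 13 from 89655312 to 89742509, minus strand) was higher in each library after MI than in each control library. Its level was 6.73, 16.0 and 6.90 CPM in control replicates 2, 3 and 4 and 81.7, 16.8 and 26.2 CPM after MI. It was 5.04, 8.36 and 4.51 CPM in hypertension and 5.78, 4.82 and 7.79 CPM in atherosclerosis, where both groups overlapped the controls. MI replicate 2 stood far above all other libraries, and the lowest MI library exceeded the highest control by 16.8 against 16.0 CPM.

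The group means of *Vcan* were 41.6 ± 35.1 CPM after MI (SD, n = 3), 9.89 ± 5.32 in controls, 5.97 ± 2.09 in hypertension and 6.13 ± 1.52 in atherosclerosis. The fitted log2 difference from controls after MI was 2.08 ± 0.52 (SE, 3 libraries against 3), a 4.21-fold difference. It was 1.12 when MI replicate 2 was left out and 2.61 when control replicate 3 was. In hypertension it was -0.72 ± 0.52 and in atherosclerosis -0.68 ± 0.52, and without control replicate 3, the highest control, these became -0.19 and -0.15. In bulk libraries like these, a change in the number of cells that make a transcript and a change in the RNA per cell cannot be told apart. The annotation places an antisense gene and a pseudogene within *Vcan*, with no shared exon and with at most 44 and 5 counts in a library, against 82 to 1480 counts of *Vcan*.

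Monocyte markers moved with *Vcan*. Their 9-gene sum (*Ly6c2*, *Ccr2*, *Csf1r* and *F13a1* among the 9, each with counts in every library) ran from 1319 to 1778 CPM in the control libraries, from 1534 to 2022 after MI, from 1129 to 1287 in hypertension and from 1279 to 1569 in atherosclerosis. MI replicate 2 had both the highest sum and the highest *Vcan*, and the 3 hypertension sums lay below all control sums. Over the 12 libraries, log2 *Vcan* and the log2 sum correlated with Pearson's r = 0.861 (permutation test with 100000 resamples, adjusted p = 0.00441 over 18 relations, p = 0.00049 unadjusted) and Spearman's rho = 0.783 (permutation adjusted p = 0.0239). After centring on group means, which removes the differences between groups, r was 0.866 (exact permutation within groups, p = 0.00309, adjusted p = 0.0278). On values not centred, without the 2 libraries farthest from the median sum, MI replicate 2 and hypertension replicate 4, r was 0.713. With the endothelial sum, *Vcan* had r = -0.12 (permutation adjusted p = 0.755). The cell type set beside each gene was chosen with earlier results of these data known. Adjustment over 18 relations does not cover that choice, here or for the relations below.

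With the monocyte sum as a covariate in the fit, the *Vcan* difference was 1.65 ± 0.36 on the log2 scale after MI, 0.33 ± 0.41 in hypertension and -0.12 ± 0.37 in atherosclerosis. Markers of other cells moved in the MI libraries as well. The sum of 8 progenitor markers, 116 to 132 CPM, lay above all controls at 111 to 113. The sums of 11 B cell markers, 241 to 532 CPM against 564 to 826 in controls, and of 5 plasmacytoid dendritic cell markers, 74.4 to 113 CPM against 130.5 to 145, lay below all controls, and every gene of these 3 lists had counts in every library. Their part in the values after MI was not tested. By real-time PCR on sorted marrow endothelium, the study found *Vcan* raised after MI and not altered by hypertension or atherosclerosis. It also reported less hematopoiesis after MI when *Vcan* was deleted in endothelial cells. Whether the *Vcan* transcripts in these libraries came from monocytes was not tested.

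The 10 genes whose log2 CPM followed *Vcan* most closely over the 12 libraries included *Ankrd52*, *Dpep2*, *Emb*, *Kri1*, *Napsa*, *Mfsd7a*, *Chd7*, *Cd300lf* and *Ms4a6d*, with r from 0.915 down to 0.890. After centring on group means, r was highest for *Emb* at 0.896 and lowest for *Ms4a6d* at 0.606. These are descriptions over libraries that share the MI libraries high in *Vcan*.

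**Figure D2:**
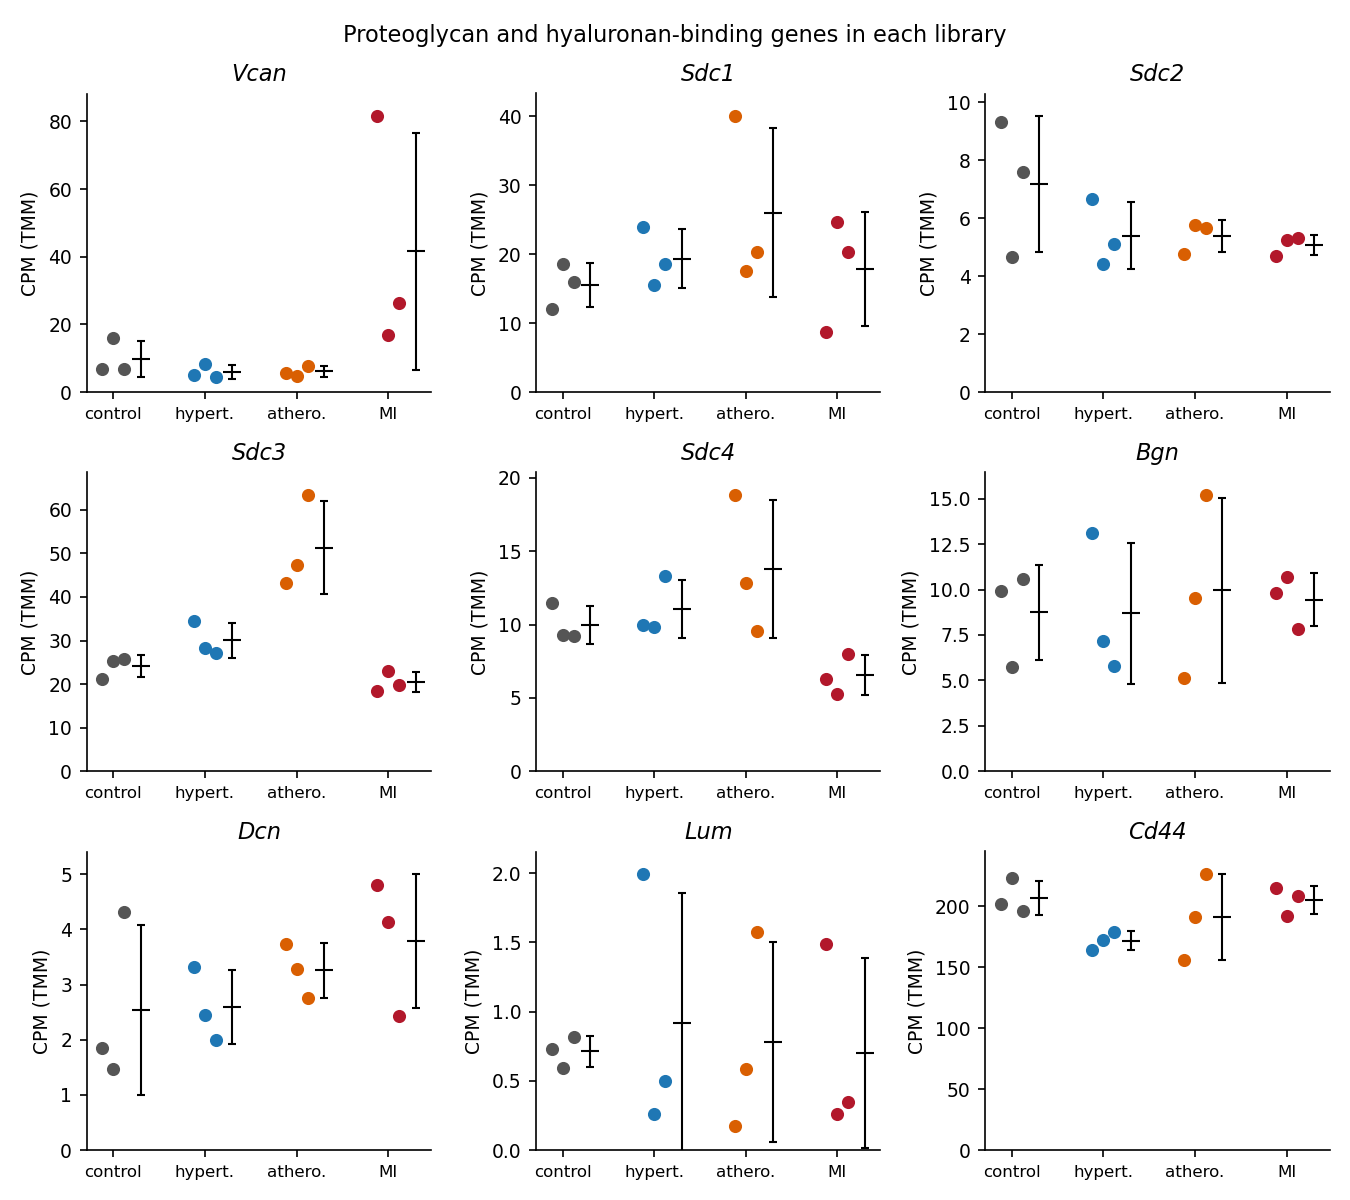
CPM of each of the 9 genes in every library, with 3 points a group and the group's mean and SD beside them as a bar. *Vcan* after MI (16.8 to 81.7) and *Sdc3* in atherosclerosis (43.2 to 63.5) lie above all their control points (at most 16.0 and 25.8).

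Of the syndecans, *Sdc3* differed most from controls, and in atherosclerosis. *Sdc3* (ENSMUSG00000025743, chromosome 4 from 130792537 to 130826319, plus strand), also called N-syndecan, is best known from neurons. It was at 21.2, 25.4 and 25.8 CPM in controls, 43.2, 47.3 and 63.5 in atherosclerosis, 34.5, 28.3 and 27.2 in hypertension and 18.4, 22.9 and 19.9 after MI. All atherosclerosis libraries lay above all other libraries, the hypertension libraries lay just above all controls, and the MI libraries overlapped the controls.

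*Sdc3* averaged 51.3 ± 10.8 CPM in atherosclerosis (SD, n = 3), 30.0 ± 3.93 in hypertension, 24.1 ± 2.52 in controls and 20.4 ± 2.29 after MI. The log2 difference was 1.09 ± 0.17 in atherosclerosis (SE, a 2.12-fold difference), 0.31 ± 0.17 in hypertension and -0.24 ± 0.17 after MI. With 1 library left out in turn, the value in atherosclerosis stayed between 0.90 and 1.21. The annotation gives 2 antisense genes that share 48 and 415 exon bases with *Sdc3*, and both were at 0 counts in all libraries.

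The sum of 15 macrophage markers, all with counts in every library, was also higher in atherosclerosis, at 1893 to 2247 CPM against 1304 to 1616 in controls. It was 1595 to 2153 in hypertension and 1284 to 1720 after MI. *Slc40a1* was the largest part of the sum, at 541 to 1281 CPM over the 12 libraries. The next, *Vcam1*, was at 125 to 303, and whether each marker rose was not tested. *Sdc3* and this sum correlated over 12 libraries with r = 0.748 (permutation adjusted p = 0.0302) and rho = 0.783 (permutation adjusted p = 0.0239). Within groups r was 0.31 (exact permutation p = 0.377). With 3 libraries a group, that value neither shows a relation within groups nor shows its absence. On values not centred, without atherosclerosis replicate 2 and hypertension replicate 2, the libraries farthest from the median sum, r was 0.77. Within atherosclerosis the macrophage sum was highest, 2247 CPM, in replicate 2, where *Sdc3* was lowest, 43.2 CPM. Summed markers of plasmacytoid dendritic cells were higher in all atherosclerosis libraries too (5 genes, 153 to 217 CPM against 130.5 to 145 in controls). So were those of progenitors (8 genes, 133 to 154 against 111 to 113) and plasma cells (10 genes, 1582 to 1895 against 1097 to 1431). The plasmacytoid dendritic cell sum was 153, 186 and 217 CPM in replicates 2, 3 and 4, in the order of *Sdc3*. The progenitor sum was 136, 133 and 154 CPM in these replicates and the plasma cell sum 1895, 1821 and 1582. Nothing is read from such orders of 3 libraries. Correlations of *Sdc3* with these other sums were not taken, and the part of these cells was not tested. *Sdc3* followed *Parp9* (r = 0.967), *Etv5* (0.960) and *Tmem26* (0.953) most closely.

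*Sdc4* (ENSMUSG00000017009, chromosome 2 from 164424247 to 164443887, minus strand), a syndecan of focal adhesions, was lower after MI. It was at 11.4, 9.26 and 9.19 CPM in controls and 6.29, 5.29 and 7.99 CPM after MI, so that the groups did not overlap. Hypertension, with 9.94, 9.85 and 13.3 CPM, and atherosclerosis, with 18.9, 12.9 and 9.58 CPM, overlapped the controls. On the log2 scale *Sdc4* differed by -0.61 ± 0.26 after MI, 0.15 ± 0.25 in hypertension and 0.47 ± 0.25 in atherosclerosis, where the value was 0.18 without replicate 2. In the same MI libraries the progenitor sum was above and the B cell and plasmacytoid dendritic cell sums were below all controls, as given beside *Vcan*, and their part was not tested. *Sdc4* moved against the stromal sum, with r = -0.396 (permutation adjusted p = 0.335) over all libraries and -0.594 within groups (exact permutation p = 0.0471, adjusted p = 0.131), neither past the threshold of 0.05 after adjustment. Its closest genes were *Cecr2* (r = 0.928), *Dmxl1* (0.925) and *Adamts6* (0.899).

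*Sdc1* (ENSMUSG00000020592, chromosome 12 from 8771323 to 8793715, plus strand) encodes CD138, which is used as a surface marker of plasma cells. It was at 12.1, 18.5 and 15.9 CPM in controls, 23.9, 15.5 and 18.5 in hypertension, 40.1, 17.6 and 20.4 in atherosclerosis and 8.67, 24.7 and 20.3 after MI, and each disease group overlapped the controls. The lowest and the highest library, MI replicate 2 and atherosclerosis replicate 2, were both single libraries apart from their group. Log2 differences of *Sdc1* were 0.32 ± 0.37 in hypertension, 0.75 ± 0.37 in atherosclerosis (0.30 without replicate 2) and 0.20 ± 0.37 after MI.

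The 10 plasma cell markers, all with counts in every library, had sums of 1097 to 1431 CPM in control libraries and 1146 to 1928 with hypertension. The sums were 1582 to 1895 with atherosclerosis and 1098 to 2437 after MI. Most of the sum was *Jchain* (349 to 1530 CPM over the 12 libraries) and *Xbp1* (474 to 692). *Mzb1* and *Tnfrsf17* reached at most 2.34 and 1.94 CPM. *Sdc1* correlated with this sum with r = 0.665 (permutation adjusted p = 0.0511) and rho = 0.762 (permutation adjusted p = 0.0239), so that the rank correlation passed the threshold and Pearson's r did not. Within groups r was 0.75 (exact permutation adjusted p = 0.128). On values not centred, without MI replicates 3 and 4, r was 0.715. *Hepacam2* (r = 0.930), *Gbp6* (0.904) and *Enpp1* (0.900) followed *Sdc1* most closely.

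*Sdc2* (ENSMUSG00000022261, chromosome 15 from 32920723 to 33034935, plus strand), a syndecan of fibroblasts and endothelium, was at 9.31, 4.66 and 7.60 CPM in controls. It was at 6.67, 4.42 and 5.11 CPM in hypertension, 4.76, 5.76 and 5.65 in atherosclerosis and 4.69, 5.24 and 5.33 after MI. The lowest control library lay below most disease libraries, so that all groups overlapped. Its log2 differences were -0.41, -0.42 and -0.50 in hypertension, atherosclerosis and MI, each with an SE of 0.26, and these values share the controls. *Sdc2* had r = 0.506 with the stromal sum and 0.428 with the endothelial sum (permutation adjusted p = 0.185 and 0.285). The genes nearest to it were *Gm37065* (r = 0.827), *Srxn1* (0.813) and *Sapcd2* (0.803).

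Taken per length, the 4 syndecans shared their summed level unevenly. *Sdc3* held a median of 30.2% of it (25.0% to 49.8% over the 12 libraries), *Sdc1* 29.8% (22.9% to 46.8%), *Sdc4* 26.1% (15% to 32.5%) and *Sdc2* 10% (5.09% to 19.0%). The largest share of *Sdc3* was in atherosclerosis replicate 4 and that of *Sdc1* in MI replicate 3.

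The small leucine-rich proteoglycans were low and overlapped between controls and every disease group. *Bgn* (ENSMUSG00000031375, chromosome X from 73483602 to 73495933, plus strand) was at 9.92, 5.74 and 10.6 CPM in controls, 13.1, 7.18 and 5.81 in hypertension, 5.11, 9.51 and 15.2 in atherosclerosis and 9.83, 10.7 and 7.82 after MI. Its spread within a group was wider than any difference between group means. The log2 difference was -0.01 in hypertension, 0.18 in atherosclerosis and 0.11 after MI, each with an SE of 0.39.

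*Bgn* followed the sum of stromal markers from mouse to mouse. The sum of 16 stromal genes (14 with counts in every library) ran from 240.5 to 413 CPM in the control libraries and from 224 to 509 with hypertension. It ran from 238 to 368 with atherosclerosis and from 241 to 356 after MI. Most of it was *Cxcl12* (77.9 to 269 CPM over the 12 libraries) and *Ibsp* (59.3 to 172). The other genes, *Lepr*, *Pdgfrb* and *Col1a1* among them, reached at most 36.6 CPM. The study also measured *Cxcl12* in sorted marrow endothelium. Relations of *Bgn* to single markers were not taken. Log2 *Bgn* and the log2 sum correlated with r = 0.855 (permutation adjusted p = 0.00441) and rho = 0.93 (permutation adjusted p = 0.00054). Within groups r was 0.877 (exact permutation adjusted p = 0.0139). On values not centred, without hypertension replicate 2 and control replicate 4, farthest from the median sum, r was 0.903. With the endothelial sum *Bgn* had r = 0.648 (permutation adjusted p = 0.0657), and whether the 2 coefficients differ was not tested. *Sparc*, which encodes a collagen-binding matrix protein, was the gene most like *Bgn* (r = 0.923), before *Rbbp4* (0.921) and *Sema4c* (0.898).

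**Figure D3:**
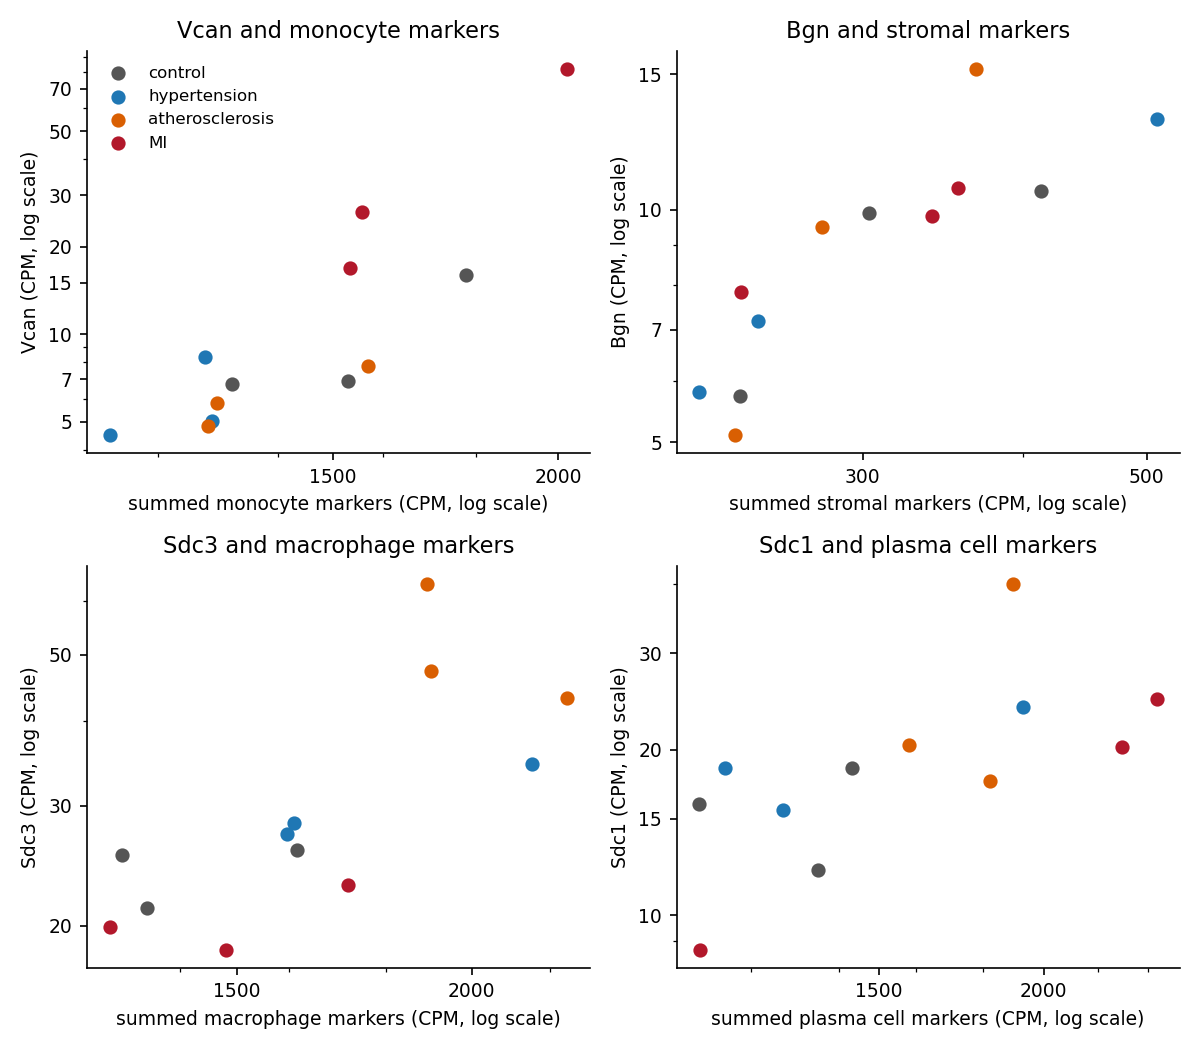
CPM of *Vcan*, *Bgn*, *Sdc3* and *Sdc1* against the summed CPM of monocyte, stromal, macrophage and plasma cell markers in the 12 libraries, on log axes, with a point for each library coloured by group. Pearson's r over all libraries was 0.861, 0.855, 0.748 and 0.665, and for *Sdc3* it was 0.31 within groups.

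*Dcn* and *Lum* are neighbours on chromosome 10. *Dcn* (ENSMUSG00000019929, from 97479609 to 97518143, plus strand) was at 1.85, 1.46 and 4.31 CPM in controls, 3.31, 2.45 and 2.00 in hypertension, 3.74, 3.29 and 2.75 in atherosclerosis and 4.80, 4.13 and 2.43 after MI. Control replicate 4 stood above the other controls and led to overlap with all groups. The log2 difference was 0.01 ± 0.40 in hypertension, 0.34 ± 0.40 in atherosclerosis and 0.56 ± 0.39 after MI, and without control replicate 4 these became 0.65, 0.98 and 1.20.

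*Lum* (ENSMUSG00000036446, from 97565128 to 97572703, plus strand) had only 4 to 44 counts in a library, the fewest of the 9 genes. It was at 0.729, 0.596 and 0.815 CPM in controls, 2.00, 0.263 and 0.501 in hypertension, 0.178, 0.587 and 1.58 in atherosclerosis and 1.49, 0.265 and 0.348 after MI. Each disease group spanned the controls, with 1 high library and others below. The log2 difference was 0.36 ± 0.82 in hypertension, 0.11 ± 0.84 in atherosclerosis and -0.03 ± 0.85 after MI, and these became -0.91, -0.95 and -1.22 without the highest library of the disease group.

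With the stromal sum, *Lum* had r = 0.705 (permutation adjusted p = 0.0511) and *Dcn* r = 0.539 (permutation adjusted p = 0.185), neither past the threshold. *Bgn* and *Lum* correlated with each other with r = 0.701 over 12 libraries, *Bgn* and *Dcn* with 0.39 and *Dcn* and *Lum* with 0.126, as descriptions over libraries that share their cell mixture. The genes most like *Dcn* were *Gm14221* (r = 0.913), *Adgrg6* (0.838) and *3830408C21Rik* (0.827), and those most like *Lum* were *Ipo5* (0.861), *Mgat4b* (0.856) and *Mybbp1a* (0.855).

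*Cd44* (ENSMUSG00000005087, chromosome 2 from 102811141 to 102901665, minus strand) was the most abundant of the 9 genes and one of the steadiest. It was at 202, 223 and 196 CPM in controls, 164, 172 and 179 in hypertension, 156, 191 and 227 in atherosclerosis and 215, 192 and 209 after MI. The hypertension libraries lay below all controls, and the other groups overlapped them. The means were 207 ± 14.1 CPM in controls (SD, n = 3) and 172 ± 7.50 in hypertension.

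The log2 difference of *Cd44* was -0.27 ± 0.15 in hypertension, -0.11 ± 0.15 in atherosclerosis and -0.01 ± 0.15 after MI. The granulocyte sum in hypertension, 37472 to 54573 CPM over 13 genes, also lay below all controls, 59103 to 81751, and so did the monocyte sum given above. The plasmacytoid dendritic cell sum in hypertension, 92.9 to 125 CPM, and the progenitor sum, 103 to 109 CPM, lay below all controls too, and the part of these cells in the values of *Cd44* and *Sdc3* in hypertension was not tested. With the monocyte sum as a covariate the *Cd44* difference in hypertension was -0.14 ± 0.17. *Cd44* had r = 0.327 with the sum of 9 T and NK cell markers and 0.151 with the endothelial sum (permutation adjusted p = 0.444 and 0.719). *Nlrp3* (r = 0.927), *Rhou* (0.918) and *Hcls1* (0.905) were the genes most like it.

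**Figure D4:**
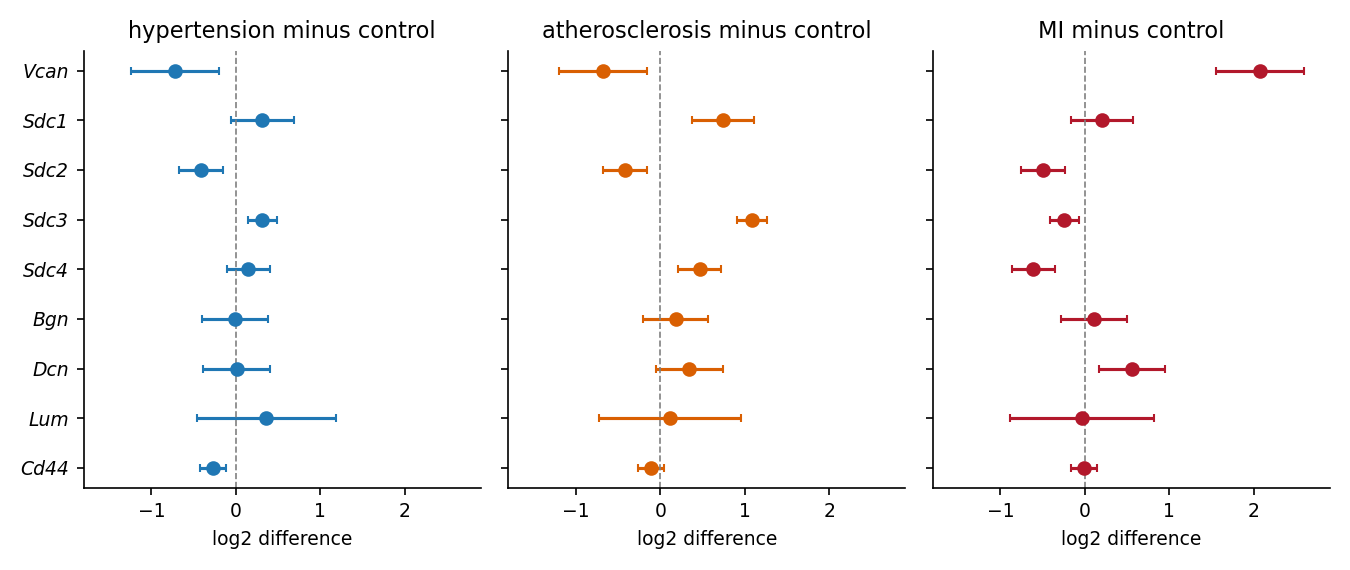
Fitted log2 difference of the 9 genes from controls in hypertension, atherosclerosis and MI, with bars of 1 SE on either side and a dashed line at no difference. *Vcan* after MI (2.08) and *Sdc3* in atherosclerosis (1.09) lie farthest to the right.

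All 9 genes passed the filter on low counts. Across the 15999 genes tested, edgeR's quasi-likelihood test called 0% in hypertension, 0.144% (23 genes) in atherosclerosis and 0% after MI at an adjusted p under 0.05, and an unadjusted p under 0.05 was reached by 594, 955 and 448 genes. Of the 9 genes, 0 were called in hypertension, 1 in atherosclerosis (*Sdc3*) and 0 after MI, and 0, 1 and 2 had an unadjusted p under 0.05 (*Sdc3* in atherosclerosis, *Vcan* and *Sdc4* after MI). The likelihood-ratio test and DESeq2 called the same number of the 9. *Sdc3* was called under 8 of 15 alternatives, and of the 6 fits with 1 library left out only the one without atherosclerosis replicate 2 called it. Since the set was chosen with these contrasts known, nothing is read from these counts.

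Counted by library, 2 of the 9 genes did not overlap between hypertension and controls (*Sdc3* higher, *Cd44* lower), where 16.8% of all genes did not (9.02% higher, 7.81% lower). In atherosclerosis 1 did not (*Sdc3* higher), where 9.51% did not (5.06% higher, 4.45% lower), and after MI 2 did not (*Vcan* higher, *Sdc4* lower), where 8.86% did not (4.27% higher, 4.59% lower). The median log2 difference of the 9 genes was 0.01 in hypertension, 0.18 in atherosclerosis and -0.01 after MI, against -0.01, 0.01 and 0.00 over all genes.

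The other genes of the pathway were taken from lists of enzymes, binding partners and further core proteins, 129 genes of which 91 were tested. In hypertension, atherosclerosis and MI, 0 of the 91 were called by edgeR's quasi-likelihood test, by the likelihood-ratio test or by DESeq2. An unadjusted p under 0.05 was reached by 2, 5 and 1 genes (2.20%, 5.49% and 1.1%), against 3.71%, 5.97% and 2.8% of all genes. Their median log2 difference was -0.01, 0.02 and -0.06, beside -0.01, 0.01 and 0.00 over all genes. Lack of overlap with the controls is named below for some related genes, not for all that showed it.

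Among core proteins beyond the 9, *Srgn* (serglycin, the proteoglycan of blood cell granules) stood at 183 CPM per kilobase of exon on average over 12 libraries and *Gpc1* (glypican 1) at 15.2, both above each syndecan. *Srgn* had a log2 difference of -0.54 ± 0.29 in hypertension. Its libraries there did not overlap the controls, as for 16.8% of all genes. *Tgfbr3* (betaglycan) had 0.68 ± 0.27 in atherosclerosis and *Agrn* (agrin) -0.48 ± 0.28 after MI, and these 3 had the smallest p of the 15 genes tested in their comparison without being called. The relatives of versican were nearly absent, with at most 1 count of aggrecan (*Acan*) or brevican (*Bcan*) and at most 2 of neurocan (*Ncan*) in any library.

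Hyaluronan itself is made by synthases in the membrane. *Has1* had at most 2 counts and *Has3* at most 9 in a library, and of the synthases only *Has2* passed the filter, with at most 28 counts. *Ugdh*, which makes the sugar nucleotide that the synthases use, was at 17.2 CPM per kilobase and the hyaluronidase *Hyal2* at 7.82. *Hyal2* had a log2 difference of -0.46 ± 0.33 after MI, and the hyaluronan-cleaving *Cemip2* had -0.16 ± 0.13 in hypertension and -0.13 ± 0.13 in atherosclerosis.

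Of the other hyaluronan binders, *Hmmr*, which is also a spindle protein of dividing cells, was at 44.0 CPM per kilobase, above *Cd44* at 28.6, and *Habp4* was at 3.44. The link proteins *Hapln1*, *Hapln2*, *Hapln3* and *Hapln4*, which fasten versican to hyaluronan, had at most 3 counts in a library. *Stab2*, a scavenger receptor of sinusoidal endothelium, had a log2 difference of 0.43 ± 0.21 in atherosclerosis, *Habp4* 0.26 ± 0.17 in hypertension and *Layn* -0.41 ± 0.28 after MI.

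The proteases that cleave versican were low, with *Adamts1* at 0.784 and *Adamts5* at 0.601 CPM per kilobase. *Adamts5* had a log2 difference of 0.55 ± 0.24 in atherosclerosis and 0.42 ± 0.24 after MI. It did not overlap the controls in either, where 9.51% and 8.86% of all genes did not. *Adamts9*, with at most 21 counts in a library, had -0.85 ± 0.46 in hypertension.

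Among binding partners of versican, the selectin ligand *Selplg* was at 85.8 CPM per kilobase and the lipopolysaccharide co-receptor *Cd14* at 81.0. *Cd14* had a log2 difference of 0.54 ± 0.25 after MI and an unadjusted p under 0.05, and *Itgb1* (an integrin chain) had 0.23 ± 0.15 in atherosclerosis. Among syndecan partners and sheddases, *Sdcbp* (syntenin) was at 182 and *Mmp9* at 118 CPM per kilobase. *Mmp9* had -0.21 ± 0.26 in atherosclerosis, *Mmp2* -0.88 ± 0.47 in hypertension and *Adam17* -0.27 ± 0.16 after MI.

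Enzymes that build the sugar chains were tested in part, with 7 of 7 genes for the linker and 15 of 24 for heparan sulfate. Of those for the linker between protein and chain, *Pxylp1*, a xylose phosphatase, was at 16.3 and *B3gat3* at 14.1 CPM per kilobase. *Pxylp1* had a log2 difference of -0.39 ± 0.14 in hypertension and -0.37 ± 0.14 in atherosclerosis. It lay below all controls in both, as did 7.81% and 4.45% of all genes. *B4galt7* had -0.26 ± 0.15 after MI. All 16 genes of chondroitin and dermatan sulfate synthesis were tested, with the sulfotransferase *Chst12* at 73.8 and the polymerase *Chsy1* at 33.9 CPM per kilobase. *Chst13* had -0.53 ± 0.17 in atherosclerosis, *Chst12* -0.30 ± 0.17 in hypertension and *Chst3* -0.62 ± 0.32 after MI.

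*Chsy1* was set apart by 1 library, with 508.7 CPM in atherosclerosis replicate 2 and 71.2 to 190.8 in the other 11. Its log2 difference in atherosclerosis was 1.06 ± 0.58. Of the heparan sulfate genes, the heparanase *Hpse* was at 10.3 and the sulfotransferase *Ndst2* at 8.67 CPM per kilobase. *Sulf2*, a sulfatase outside the cell, had -0.50 ± 0.25 in atherosclerosis and -0.43 ± 0.25 after MI, and *Extl3* had 0.33 ± 0.21 in hypertension.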

How the data were processed

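The authors aligned single-end reads of 50 bases to GRCm38.p6 with STAR 2.7.3a, counted them per gene of Ensembl release 98, and deposited raw counts, which are not normalized. The column of STAR's strand options that was taken is not given in the sources used here. All 12 columns were used, matched to the labels by their group and number. Symbols, positions and exon lengths came from GENCODE M21, which held 55154 of the 55421 genes.

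Genes were filtered with filterByExpr, scaled by TMM (factors 0.934 to 1.06) and fitted with 1 coefficient for each group in edgeR 4.0.16 (R 4.3.3), with 8 residual degrees of freedom. Tests were two-sided (glmQLFTest), with Benjamini-Hochberg adjustment over 15999 genes. The labels do not say that libraries came from separately handled mice, so p values measure the spread between these libraries. Correlations used log2 CPM with a prior count of 2 and permutations of the libraries, two-sided, adjusted over 18 relations.

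The 9 genes, the related lists, the marker lists and the tests were chosen with earlier results of these data known. Genes named are the 9 genes; of each related list, those called, otherwise the gene with the smallest p in each comparison and the pair with the highest mean level per length; the 10 genes most correlated with Vcan and the 3 with each other gene; and markers. Genes at or near 0, Chsy1 and further comparisons of a named gene were added after their values were seen, and a pair of genes that this rule names is not reported here. The fit was tested on simulated counts for MI against control over 15734 genes, where it called 41 of 99 genes changed by log2 1, 93 of 100 changed by log2 2 and 11 unchanged genes. Alternatives were the likelihood-ratio test named in the study, DESeq2 1.42.0, RLE size factors, other filters, the 2 groups of a comparison alone, a block for the replicate number, marker sums as covariates, the longest transcript as length, and leaving out each library.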

Additional observations from a re-analysis of the deposited data

How the results depend on the processing

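The *Vcan* difference kept its sign under every alternative except in hypertension with the monocyte sum as covariate, where it was 0.33, and that covariate brought it to -0.12 in atherosclerosis. Leaving out 1 library at a time gave *Vcan* log2 differences from -1.05 to -0.19 in hypertension, -0.90 to -0.15 in atherosclerosis and 1.12 to 2.61 after MI. Of 240 values of the 9 genes under settings other than leaving out a library, 231 had the sign of the reported value.

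Counts of genes called depended on the test. In atherosclerosis, 23 genes were called as reported, 81 by the likelihood-ratio test, 81 by DESeq2, 432 without a filter, 4 with only the 2 groups compared, 9 with the monocyte covariate, and 2 to 34 with 1 library left out (2 without control replicate 3, 3 without control replicate 2, 6 without atherosclerosis replicate 3, 11 without control replicate 4). After MI, 0 were called as reported, 1 by the likelihood-ratio test, 1 by DESeq2, 1 with only the 2 groups compared and 130 without a filter, and in hypertension 170 without a filter against 0. Without a filter, 36003 genes entered the fit, and *Vcan* was called after MI. Of the related genes 1 was called in hypertension (*Fbln2*) and 1 in atherosclerosis (*Chsy1*). The causes were not tested. Nothing is read from calls of the 9 genes, here or below, since the set was chosen with these contrasts known.

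With the replicate number as a block, 7 genes were called in atherosclerosis and *Sdc3* was not. The numbers did not pair the libraries: deviations from group means of libraries with the same number correlated with r between -0.28 and 0.30, and 4 of 12 libraries were closest to one with their own number. The block left the counts of 0 in hypertension and MI as they were.

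The relation of *Sdc3* to macrophage markers lost its adjusted p under 0.05 when 1 of 4 libraries was left out (adjusted p = 0.0517 to 0.0648, permutation), and those of *Bgn* to endothelial, *Lum* to stromal and *Sdc1* to plasma cell markers passed it in some such fits. With 3 libraries a group, the simulated test recovered fewer than 1 in 2 of the genes changed by log2 1, and the counts of *Lum* limited its values.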
